A study of Mus musculus with 7 samples.

Results

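Lipid droplets, the organelles in which cells store triglyceride, are covered by coat proteins that decide how easily lipases reach the fat. The genes described here are 9 members of that system, chosen by symbol: the perilipins Plin1, Plin2, Plin3, Plin4 and Plin5, the CIDE proteins Cidea and Cidec, and the endoplasmic reticulum proteins Bscl2 (seipin) and Fitm2 (FIT2). Of the 9, 8 had at least 1 array probe set annotated to them alone, 10 probe sets in all, and all 8 were among the 11725 genes tested of 18193 with a probe set. Plin1, the main coat of adipocyte droplets, is not analysed here because no probe set is listed under its symbol, its older symbol or its gene identifier. A gene with several probe sets is given by the brightest.

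The arrays measured total RNA of whole mammary glands from virgin female FVB mice, 8 weeks old, that all carry the polyoma virus middle T transgene (PyV-MT), an oncogene that drives mammary tumours. The CLA group (4 arrays) ate chow with 1% conjugated linoleic acid, a mixture of linoleic acid isomers with conjugated double bonds, for 4 weeks from the age of 4 weeks, and the control group (3 arrays) ate AIN93G chow. The study placed 6 mice on CLA chow and 5 on control chow, and each array is taken as 1 mouse. The labels do not name the promoter that drives the transgene, and no glands without it are among the arrays.

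Perilipins and CIDE proteins divide by cell type. Plin1, Plin4 and Cidec are abundant in white adipocytes, where CIDEC protein fuses droplets into the single large droplet typical of those cells, while Cidea is best known from brown adipocytes and from milk-secreting mammary epithelium. Plin2 and Plin3 coat droplets in nearly all cells, Plin2 being also a protein of milk fat globules, and Plin5 serves tissues that burn fat, such as heart, muscle and brown fat. Seipin and FIT2 act earlier, where a droplet grows and buds from the endoplasmic reticulum, and in humans loss of seipin causes congenital lipodystrophy.

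Upstream sequences are shown for 2 coats of adipocytes and 2 of all cells, since the results set these against each other. Each is the 250 bases before the annotated start in RefSeq, build GRCm38.p6, written 5′ to 3′ on the strand of the gene. They lie at chr17:56109783-56110032 (minus strand) for Plin4, chr6:113434765-113435014 (minus strand) for one of the 2 annotated starts of Cidec, chr4:86670060-86670309 (minus strand) for Plin2 and chr17:56290512-56290761 (minus strand) for Plin3. Capitals mark matches, on either strand, to the nuclear receptor half-site AGGTCA, the C/EBP palindrome TTNNGCAA, the NF-Y box CCAAT, the GC box GGGCGG, the E-box CACGTG and the TATA box TATAAA, and in Plin3 adjacent GC boxes overlap.
Plin4: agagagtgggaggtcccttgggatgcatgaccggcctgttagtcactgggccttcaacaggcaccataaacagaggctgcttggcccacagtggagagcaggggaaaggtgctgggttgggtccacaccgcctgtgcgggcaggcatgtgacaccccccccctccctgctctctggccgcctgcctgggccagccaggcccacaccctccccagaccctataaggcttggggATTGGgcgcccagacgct
Cidec: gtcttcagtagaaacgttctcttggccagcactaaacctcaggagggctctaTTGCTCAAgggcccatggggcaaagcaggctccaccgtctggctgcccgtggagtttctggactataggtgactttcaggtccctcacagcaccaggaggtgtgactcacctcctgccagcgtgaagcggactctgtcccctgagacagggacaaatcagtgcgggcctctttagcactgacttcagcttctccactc
Plin2: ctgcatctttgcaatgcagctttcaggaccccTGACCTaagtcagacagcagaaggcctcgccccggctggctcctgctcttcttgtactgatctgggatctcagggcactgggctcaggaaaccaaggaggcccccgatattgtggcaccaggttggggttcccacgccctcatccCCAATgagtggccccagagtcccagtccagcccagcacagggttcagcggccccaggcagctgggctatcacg
Plin3: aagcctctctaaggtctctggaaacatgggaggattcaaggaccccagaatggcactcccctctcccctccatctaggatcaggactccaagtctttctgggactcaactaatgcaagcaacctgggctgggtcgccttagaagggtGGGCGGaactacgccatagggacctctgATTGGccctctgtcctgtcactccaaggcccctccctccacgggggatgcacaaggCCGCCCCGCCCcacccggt
The Cidec window holds a C/EBP match, as do 9.56% of 32851 promoters of the same length, and the Plin2 window a half-site, as do 14.0%. The window before the other Cidec start, which is not shown, had no match to any motif named here. An NF-Y box is in the Plin4, Plin2 and Plin3 windows and in 33.9% of all promoters, and GC boxes are in the Plin3 window and in 32.7%. E-boxes and TATA boxes, in 6.02% and 12.4% of all promoters, had no match in the 4 windows. The full direct repeat of PPAR and RXR, AGGTCANAGGTCA, which occurs in 0.033% of promoters, was matched in none of the 12 upstream windows used for 8 of the members. No window of Cidea was among them. These matches are letters in a window and were not measured as binding.

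All 7 arrays had the same trimmed mean signal of 500.003, and correlations between arrays across genes lay between 0.915 and 0.972. The highest joined CLA replicate 1 with control replicate 1, the only 2 arrays whose title numbers begin with 27. Those of the others begin with 28. RNA integrity, read as the signal of the 3′ over that of the 5′ control probes of Actb, differed most on CLA replicate 3, with a ratio of 2.78, the other 6 arrays having 1.41 to 1.88. Luminal markers, which check the labelled tissue, were bright on every array, with the luminal keratin gene Krt8 at a signal of 16805 to 18741 in CLA glands and 15379 to 19240 in control glands. The milk protein genes Csn2 and Wap of the same list were much lower on CLA replicate 3, at 4449 and 5063, than on the other CLA arrays, which had at least 34033 and 19862, or in control glands, which had at least 31031 and 20655. In bulk tissue, fewer cells of a type and less RNA per cell cannot be told apart.

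All 8 measured members had lower mean log2 signal in CLA glands, by very different amounts. The 3 adipocyte coats had the most negative log2 changes, CLA minus control, from -3.30 to -1.45, while Plin2 and Plin3 had -0.52 and -0.18. No member passed limma's test after Benjamini-Hochberg adjustment over all genes, where adjusted p ran from 0.415 to 0.997, and 0 of 11725 genes (0%) passed. At an unadjusted p under 0.05, 6 of 8 members were lower in CLA glands, against 2.97% of all genes lower and 2.45% higher, and 0 members were higher. The median log2 change was -0.76 over the 8 members and 0.03 over all genes tested, of which 44.0% had a negative change. In 3 members every CLA array lay below every control array, as in 2.58% of all genes.

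**Figure D1:**
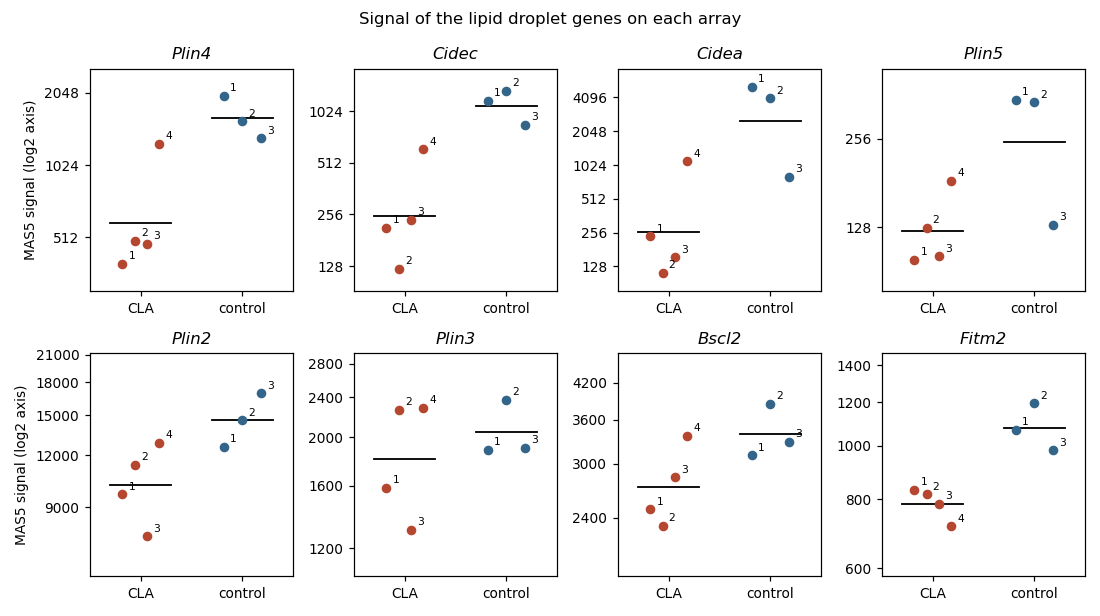
MAS5 signal of the 8 measured lipid droplet genes on each array (log2 axis), CLA at left and control at right; points are arrays with their replicate number, and lines are geometric means. CLA replicate 4 is the highest CLA array for 7 of the 8 genes and the lowest for Fitm2, at 715.

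Cidec, the droplet fusion protein of white adipocytes, had signals of 215, 123, 238 and 615 on CLA replicates 1 to 4 and of 1177, 1341 and 849 on control replicates 1 to 3. The groups did not overlap, and CLA replicate 4 lay between the other CLA arrays and the controls. The mean signal was 298 ± 217 in CLA glands (SD, n = 4) and 1122 ± 250 in control glands (SD, n = 3), and on the log2 scale the change was -2.14 ± 0.45 (SE), 4.42-fold lower. Its 95% interval ran from -3.16 to -1.13, with limma's unadjusted p of 0.000931 and an adjusted p of 0.415. Among all genes tested its p ranked 26th.

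Plin4, a perilipin of white adipocytes that binds newly forming droplets, had signals of 396, 495, 482 and 1252 in CLA glands and of 1988, 1561 and 1323 in control glands. The groups did not overlap here either, but CLA replicate 4 came close to the lowest control. The mean was 656 ± 400 in CLA glands (SD, n = 4) and 1624 ± 337 in control glands (SD, n = 3). The log2 change of -1.45 ± 0.36 (SE), 2.73-fold lower, had a 95% interval from -2.25 to -0.64 and a limma adjusted p of 0.665. Both genes passed the threshold without CLA replicate 4, Plin4 at -1.81 (limma adjusted p of 0.0207) and Cidec at -2.58 (limma adjusted p of 0.0224), a setting in which 17 of all genes were lower and passed. Among title numbers in 28 alone the changes were -1.10 for Plin4 and -2.02 for Cidec.

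Cidea, the CIDE protein of brown adipocytes, had the largest change of the members and the widest spread. Its signals were 238, 112, 154 and 1108 on CLA replicates 1 to 4 and 5091, 4026 and 809 on control replicates 1 to 3. CLA replicate 4 lay above control replicate 3, so the groups overlapped, while the other 3 CLA arrays were below all controls. The log2 change was -3.30 ± 0.82 (SE), 9.82-fold lower on average, with a 95% interval from -5.13 to -1.46 and a limma adjusted p of 0.665. Leaving out an array moved it between -4.12 without control replicate 3 and -2.80 without control replicate 1.

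The brown adipocyte marker Ucp1, the uncoupling protein, was also higher on CLA replicate 4 than on control replicate 3. Its signals were 3.19, 18.2, 39.6 and 916 in CLA glands and 3383, 3964 and 144 in control glands. Those of CLA replicates 1 to 3 were below the filter signal of 81.4, and their order differed from that of Cidea. Of 6 brown adipocyte markers tested, 5 were lower at an unadjusted p under 0.05, and the summed signal of the 7 measured ran from 852 to 3873 in CLA glands and from 2698 to 12731 in control glands. The mean log2 signal of the 7 differed from its 7-array mean by 0.22 on CLA replicate 4 and by -0.58 on control replicate 3, so these arrays overlapped as for Cidea. Dio2, at 148 and 243 on those arrays, was an exception. Zic1, which was below the filter with signals of at most 34.9, had a positive log2 change of 0.85 and was not tested. The part of brown fat in the Cidea result was not tested.

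Plin5, which ties droplets to mitochondria in fat-burning tissues, was dim. Its signals were 98.9, 127, 102 and 184 in CLA glands and 347, 340 and 130 in control glands, against a filter signal of 81.4. Control replicates 1 and 2 stood well above the rest and control replicate 3 within the CLA range. The log2 change was -1.00 ± 0.39 (SE), 2.01-fold lower, with a limma adjusted p of 0.861 and an unadjusted p of 0.0277, which was 0.114 without control replicate 1 and 0.110 without control replicate 2. The other probe set of Plin5 gave -0.82, and among title numbers in 28 alone the change was -0.65. Skeletal muscle markers, another possible source of Plin5 transcript, had their highest level on control replicate 2 and were higher on CLA replicate 1 than on control replicate 1, where the creatine kinase gene Ckm had 1538 against 982. All 10 muscle markers tested were lower in CLA glands at an unadjusted p under 0.05, their summed signal running from 637 to 14218 in CLA glands and from 9697 to 90467 in control glands. With these markers as a covariate the change of Plin5 was -1.25, with limma's unadjusted p of 0.0667. The part of muscle in it was not tested further. Brown fat was also named above as a tissue of Plin5. The mean log2 signal of the brown adipocyte markers, minus its mean over all arrays, was -0.96, -1.03, -0.98 and 0.22 in CLA glands. In control glands it was 1.68, 1.66 and -0.58. Plin5 itself differed from its mean by -0.76, -0.39, -0.72 and 0.14 in CLA glands and by 1.05, 1.03 and -0.36 in control glands. The part of brown fat in the Plin5 change was not tested.

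**Figure D2:**
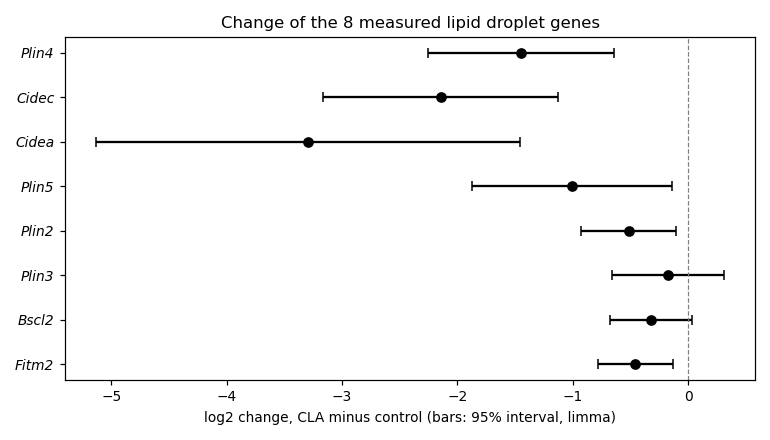
Log2 change, CLA minus control, of the 8 measured genes (points) with 95% limma intervals (bars). Intervals of Plin3, from -0.66 to 0.31, and of Bscl2, from -0.68 to 0.04, include 0.

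Of the coats found in all cells, Plin2 was moderately lower. Its signals were 9676, 11397, 7671 and 12863 in CLA glands and 12609, 14604 and 16928 in control glands. The groups overlapped by a single pair of arrays, CLA replicate 4 lying just above control replicate 1. The mean was 10402 ± 2238 in CLA glands (SD, n = 4) and 14714 ± 2162 in control glands (SD, n = 3). The log2 change of -0.52 ± 0.18 (SE), 1.43-fold lower, had a 95% interval from -0.93 to -0.10 and a limma adjusted p of 0.837, and without CLA replicate 3 it was -0.38. Limma's unadjusted p was 0.0192, and 0.0807 without control replicate 3.

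Plin3, a largely cytosolic coat that moves onto young droplets, had signals of 1583, 2264, 1305 and 2286 in CLA glands and of 1888, 2376 and 1902 in control glands. CLA arrays lay on both sides of the controls. The log2 change of -0.18 ± 0.22 (SE) was smaller than its error, with a 95% interval from -0.66 to 0.31 and a limma adjusted p of 0.997. Over the left-out arrays it ran from -0.29 to -0.02, and with the muscle markers as a covariate it was -0.41. The value of -0.02 came without CLA replicate 3, the array of lowest Plin2, Plin3, Csn2 and Wap signal and of the highest Actb ratio. The part of these in the Plin3 and Plin2 values was not tested.

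The milk fat globule genes were set beside Plin2. All 6 tested had negative changes, with a median of -0.69, and 2 were lower at an unadjusted p under 0.05. These were Olah, which releases medium-chain fatty acids, at -1.70 ± 0.50 (SE) and the mucin gene Muc1 at -0.54 ± 0.22, and the fatty acid binding protein gene Fabp3 had -1.39 ± 0.74. Limma adjusted p for the 3 ran from 0.699 to 0.919. Btn1a1, Xdh and Mfge8 had -0.84, -0.27 and -0.04. The mean log2 signal of the 6 differed from its 7-array mean by -1.20 on CLA replicate 3, by between -0.33 and 0.32 on the other CLA arrays and between 0.17 and 0.61 on control arrays. Luminal epithelium markers had a median change of -0.07 over 8 tested, 5 negative and 3 positive, with 0 at an unadjusted p under 0.05. Markers of macrophages, another cell type that expresses Plin2, had a median change of 0.02 over 7 tested, with the macrophage surface gene Adgre1 at 589 to 785 in CLA glands and 561 to 687 in control glands, and 1 of them, the scavenger receptor gene Cd163, was lower at an unadjusted p under 0.05, at -1.06.

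The droplet formation proteins showed small differences. Fitm2, needed for droplets to bud into the cytosol, had signals of 832, 817, 784 and 715 in CLA glands and of 1069, 1194 and 981 in control glands. The groups did not overlap, and CLA replicate 4, the highest CLA array for the adipocyte coats, was the lowest for Fitm2. The mean was 787 ± 52.2 in CLA glands (SD, n = 4) and 1081 ± 107 in control glands (SD, n = 3). The log2 change was -0.46 ± 0.14 (SE), 1.37-fold lower, with a 95% interval from -0.78 to -0.13 and a limma adjusted p of 0.699, and with the muscle markers as a covariate it was -0.32 (limma's unadjusted p of 0.181, against 0.0105 without it).

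Bscl2, which encodes seipin, had signals of 2486, 2319, 2840 and 3369 in CLA glands and of 3107, 3853 and 3288 in control glands on its brighter probe set. Only CLA replicate 4 reached the control range. On the dimmer probe set the signals were 855, 845, 834 and 960 in CLA glands and 1035, 1192 and 1073 in control glands, without overlap. The log2 changes of the 2 probe sets were -0.32 and -0.33, and limma's interval for the brighter one ran from -0.68 to 0.04 (adjusted p of 0.903).

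Adipocyte coats and coats of all cells were then compared within each array, which removes differences in scaling. These ratios were chosen in place of ratios to Plin1, after values were seen, and carry no test. The log2 ratio of Cidec to Plin3 was -2.88, -4.20, -2.45 and -1.89 in CLA glands and -0.68, -0.82 and -1.16 in control glands. That of Plin4 to Plin3 was -2.00, -2.19, -1.44 and -0.87 in CLA glands and 0.07, -0.61 and -0.52 in control glands, so for both ratios every CLA array lay below every control array. Against Plin2, Cidec was lower in CLA glands by a mean of 1.63 on the log2 scale (-1.63) without overlap, and Plin4 by 0.93 (-0.93) with overlap. Among title numbers in 28 alone the difference of Plin4 to Plin2 was -0.51.

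White adipocyte markers were lower as well. All 8 markers tested were lower at an unadjusted p under 0.05, with a median change of -1.40, and the adiponectin gene Adipoq had 1807, 901, 1547 and 6936 in CLA glands and 8542, 7924 and 5486 in control glands. The summed signal of the 10 markers measured ran from 15392 to 37432 in CLA glands and from 46329 to 57037 in control glands. CLA replicate 4 was again the highest CLA array, as for Plin4, Cidec and Cidea.

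Of 7 basal epithelium markers tested, 4 had positive and 3 negative changes, with a median of 0.85. At an unadjusted p under 0.05, 3 were higher and 0 lower. The basal keratin gene Krt5 had 1731, 2198, 1631 and 1858 in CLA glands and 1476, 579 and 559 in control glands, without overlap, a log2 change of 1.24 ± 0.31 (SE) and a limma adjusted p of 0.682. The others higher at that level were the keratin genes Krt14, at 1.40, and Krt17, at 1.67. Negative changes were those of Acta2, Oxtr and Myh11, at -0.04, -0.09 and -0.59. The summed signal of the 7 ran from 7620 to 9598 in CLA glands and from 4285 to 7538 in control glands, and their part in the members' changes was not tested. Endothelial markers had a median change of -0.13 over 6 tested, 4 negative and 2 positive, 0 of them with an unadjusted p under 0.05. The adhesion protein gene Pecam1 had 0.18 ± 0.22, while Flt1 had -0.58 ± 0.27 (SE) without overlap of the groups.

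**Figure D3:**
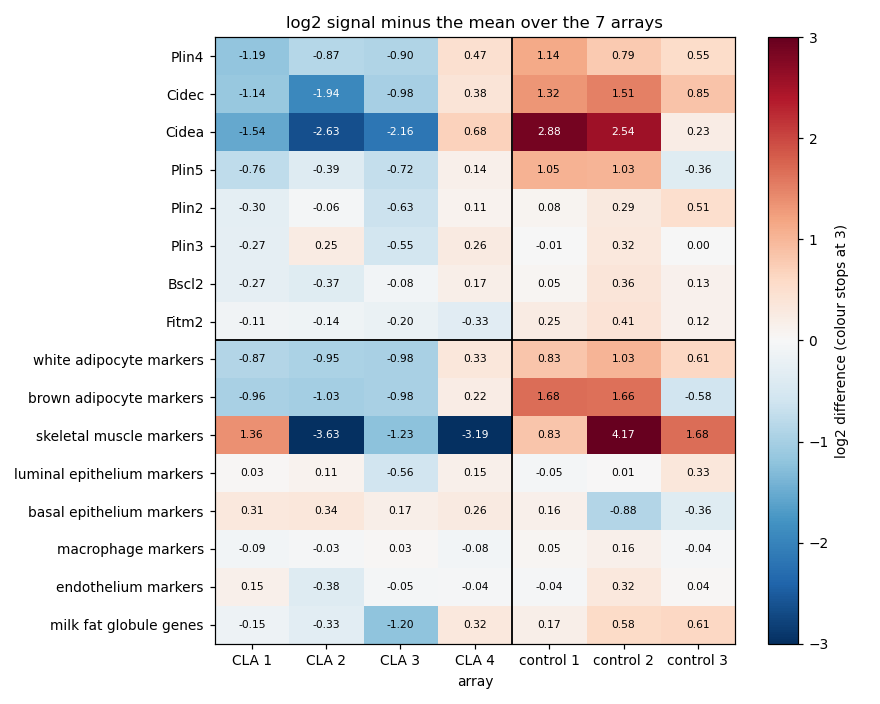
Log2 signal of each member, and mean log2 signal of each marker list, minus its mean over the 7 arrays, with CLA arrays at left and control arrays at right; red is above and blue below the mean. Plin4 and Cidec share the order of the white adipocyte markers in that CLA replicate 4, at 0.47 and 0.38, stands above the other CLA arrays, while skeletal muscle markers run from -3.63 to 4.17 in another order.

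Relative to the mean log2 signal of the white adipocyte markers on the same array, the coats showed different patterns. Plin4 minus the markers averaged 0.05 ± 0.21 in CLA glands and 0.06 ± 0.28 in control glands (SD), a difference of -0.01 that is smaller than the spread. Cidec minus the markers averaged -1.18 ± 0.47 in CLA glands and -0.48 ± 0.14 in control glands, and every CLA array lay below every control array. The marker mean is over the 10 measured, and the 8 tested had unequal log2 changes, from -2.11 for Pck1 to -0.93 for Lipe. The change of Cidec itself, at -2.14, was near that of Pck1. Plin3 minus the markers averaged 1.68 ± 0.52 in CLA glands and 0.41 ± 0.12 in control glands, with every CLA array above. Because the markers were lower in CLA glands, any gene of little change rises by this measure. Bscl2, for one, had a difference of 1.12, also with every CLA array above. Plin2 minus the markers averaged 4.18 ± 0.47 in CLA glands and 3.25 ± 0.37 in control glands and overlapped at CLA replicate 4. These differences are descriptions of the arrays and were not tested.

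**Figure D4:**
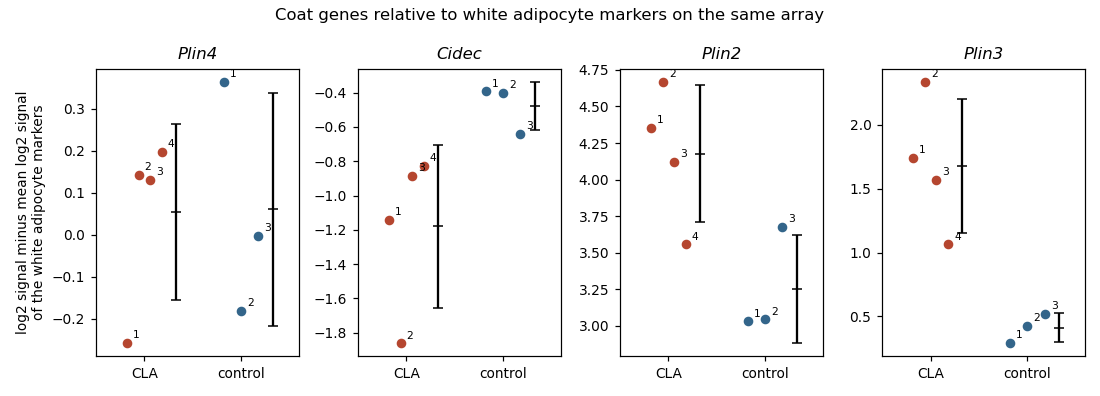
Log2 signal of 4 coat genes minus the mean log2 signal of the white adipocyte markers on the same array, with CLA at left and control at right; points are arrays with their replicate number, and bars are mean ± SD. Plin4 averages 0.05 and 0.06 in the CLA and control groups. Relative to these markers, which were themselves lower in CLA glands, Cidec is lower and Plin3 higher on every CLA array.

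The members also differed in which genes they resembled across the 7 arrays. Only tested genes without a clone or predicted-gene name were ranked. By Pearson correlation of log2 signal, a description over arrays whose diets differ, the 5 genes most like Cidec were Fabp4, a fatty acid binding protein of adipocytes, at 0.997, Ces1d at 0.991, Dgat2, which completes triglyceride, at 0.988, Ptger3 at 0.986 and Pparg at 0.982. Those most like Cidea were Pck1 at 0.992, Maob at 0.987, Pparg at 0.984, and Etfb and Fmo1, both at 0.980. Plin2 had a different set, Pgd, of the pentose phosphate pathway, at 0.980, Rasip1 at 0.960, Hadha, of mitochondrial fatty acid oxidation, at 0.958, Atp2c2 at 0.957 and Il6ra at 0.951. Between members, Cidea and Cidec correlated at 0.956 and Plin4 and Cidec at 0.944, whereas Plin3 and Cidec correlated at 0.360.

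Pparg, the nuclear receptor that drives adipocyte droplet genes, had signals of 108, 67.0, 92.9 and 249 in CLA glands and of 414, 357 and 234 in control glands. CLA replicate 4 overlapped control replicate 3. Its log2 change was -1.52 ± 0.42 (SE) with a limma adjusted p of 0.682, and it was the only one of 6 tested perilipin regulators with an unadjusted p under 0.05. Hif1a and Cebpa, the next by p, had 0.26 ± 0.14 and -0.38 ± 0.22, and the median of the 6 was -0.12.

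Among 25 other droplet proteins tested of 29 measured, 18 had a negative and 7 a positive change, with a median of -0.17. At an unadjusted p under 0.05, 9 were lower and 0 higher, against 2.97% of all genes lower and 2.45% higher. After adjustment over all genes 0 passed. In 5 of the 25 every CLA array lay below every control array, as in 2.58% of all genes. Dgat2 had signals of 555, 502, 831 and 1705 in CLA glands and of 2968, 3462 and 2594 in control glands, without overlap, a log2 change of -1.91 ± 0.37 (SE) and a limma adjusted p of 0.342. Pnpla2, the adipose triglyceride lipase that the coats hold in check, had -0.86 ± 0.21 and Mettl7a1 -0.81 ± 0.22, also without overlap. Dgat2 and the lipase Lipe are abundant in adipocytes, and Lipe is also on the list of white adipocyte markers. Fitm1, the muscle relative of Fitm2, had -1.83 ± 0.57 and signals of 125, 28.3, 28.3 and 62.6 in CLA glands and of 242, 238 and 98.3 in control glands. Changes near 0 included Faf2 and Acsl3, at 0.00 each, and Aup1 at 0.05.

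**Figure D5:**
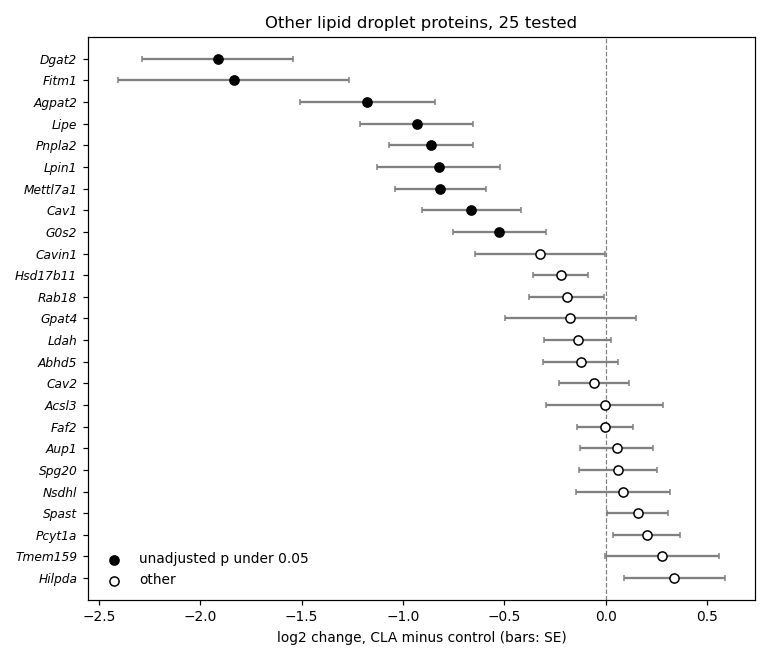
Log2 change, CLA minus control, of the 25 tested genes of other droplet proteins (points) with standard errors (bars); filled points have an unadjusted limma p under 0.05. Values run from -1.91 for Dgat2 to 0.34 for Hilpda.

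The perilipins of largest and smallest difference are close together in the genome. Plin4 and Plin5 are adjacent on chromosome 17 with 0 protein-coding genes between them, and Plin3 lies 8 protein-coding genes from Plin4, by gene order in RefSeq. Their log2 changes were -1.45, -1.00 and -0.18. Between the pair with title numbers in 27, CLA replicate 1 minus control replicate 1, the differences of these 3 genes were -2.33, -1.81 and -0.25, those of Cidec and Cidea -2.46 and -4.42, and those of Plin2, Bscl2 and Fitm2 -0.38, -0.32 and -0.36.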

How the data were processed

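Total RNA of 7 mammary glands was hybridised to 1-colour Affymetrix arrays, per the labels' protocols. The authors deposited MAS5 intensity values, per the submitters' processing notes, which are linear, and their equal trimmed means (2% at each end) show that the arrays were scaled before deposit. Neither a MAS5 version nor a genome build or annotation is given in the sources used. Scaling makes every change relative to the other transcripts of a gland, and low MAS5 signals carry background.

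Of 45101 probe sets, 64 were Affymetrix controls, 34945 had 1 gene, 932 several and 9160 none; only those with 1 were used. For 34741 the symbol was updated by gene identifier in a RefSeq table of GRCm38.p6. After a floor of 1, signals were taken to log2. Genes with a mean log2 signal of at least the 40th percentile of probe sets with 1 gene were tested with limma 3.58.1 in R 4.3.3 (lmFit, eBayes with trend), two-sided, adjusted over all genes (threshold 0.05). The fit was tested on simulated data. Figures used matplotlib 3.10.9 in Python 3.11.15.

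Groups came from the diet in the labels, and replicates are numbered in accession order. Nothing says whether title numbers mark batches. The members, lists and tests were chosen with earlier results of these data known. All members are named, as are the 3 genes of smallest p of each pathway list, the first gene of each marker list and the 5 genes most like Cidea, Plin2 and Cidec. The planned ratios of Plin1 were not run, since no probe set is listed under it, and ratios of Cidec and Plin4 took their place, as Cidec did for the genes most alike. Fitm1, Lipe, Hilpda, Faf2, Acsl3, Aup1, Cd163, Krt14, Krt17, Csn2, Wap and Dio2 were named after their values were seen. So were Acta2, Oxtr, Myh11, Flt1, Btn1a1, Xdh, Mfge8 and Zic1.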

Additional observations from a re-analysis of the deposited data

Results flagged for a closer look

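For 5 values, 1 CLA array lay far from the other CLA arrays, by Dixon's test for a group of 4, which was run on 21 values in all and flags about 1 in 20 groups by chance. CLA replicate 4 was far above the others for Plin4, at a signal of 1252 against 396 to 495, and for Cidea, at 1108 against 112 to 238. CLA replicate 4 was far below the others for the log2 ratio of Fitm2 to the white adipocyte markers, at -0.61 against 0.81 to 0.87. CLA replicate 1 was far below the others for the log2 ratio of Plin4 to those markers, at -0.26 against 0.13 to 0.20. CLA replicate 2 was far above the others for the log2 ratio of Plin4 to Cidec, at 2.00 against 0.89 to 1.03.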

How the results depend on the processing

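Under quantile normalization, median centring, pseudocounts of 16 and 64, no filter, a 60th percentile filter, averaged probe sets, robust and untrended eBayes, the title number as a block and the muscle markers as a covariate, 0 genes passed over all genes, and each member tested kept a negative change that did not pass. Plin5 was below the 60th percentile filter. With title numbers starting with 28 alone, 1 gene passed, a higher one. With an array left out, the number of genes that passed ran from 0 to 17, being 2 (both higher) without control replicate 1 and 17 (all lower) without CLA replicate 4. Over the left-out arrays the log2 change ran from -1.81 to -1.26 for Plin4 and from -2.58 to -1.80 for Cidec, and both passed only without CLA replicate 4. The number of members at an unadjusted p under 0.05 was 6, and from 4 with the muscle covariate to 7. The number of all genes at that level was 635, against 972 without a filter, 1183 in title numbers starting with 28, 269 with the muscle covariate, 437 with the 60th percentile filter, 1337 without control replicate 1, and 349, 411 and 405 without control replicate 2, control replicate 3 and CLA replicate 2. The cause of these shifts was not tested. No paired analysis was possible because the labels give no replicate number shared between the diets. The planned ratios of Plin1 could not be run. Few arrays and signals near the filter limit what can be seen for Plin5.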
